A study of Homo sapiens with 8 samples.

Results

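The comparison described here sets the chromatin binding of HA-tagged RUNX1-4A against that of HA-tagged wild-type RUNX1 (WT) in HEL cells, a leukemia line that carries features of the erythroid and the megakaryocyte lineage. It uses 4 of the 8 CUT&RUN libraries of the series, which are replicates 1 and 2 of each of these lines, chosen by their labels. All lines were transduced, grown under puromycin (2 µg/ml) and profiled with the same anti-HA antibody from 500000 cells a sample. An empty vector line, also transduced, was the background for peak calling per the series design, and a RUNX1-4D line (2 libraries) serves here only as a further readout. The series title is about phosphorylation of RUNX1 on serine and threonine, but the labels do not say which residues are altered in 4A and 4D. The labels do not say which promoter drove the tagged proteins, whether a line was 1 clone, or how much of each protein was made. The untagged RUNX1 of the cells was not read by the antibody, and peak lists hold no expression from which the identity of the cells could be checked.

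RUNX1 is a transcription factor that binds DNA through its Runt domain together with its partner CBFB and has a preference for the letters TGTGGT or TGCGGT. In blood it is needed for the making of stem cells and later for megakaryocytes, the platelet-forming cells, and loss of its function causes platelet disorders and leukemia. Serine and threonine residues outside the Runt domain can be phosphorylated by kinases that include cyclin-dependent kinases.

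Each library came as a list of peaks. The deposited lists on chromosomes 1 to 22 and X held 6752 (WT) and 6256 (4A) peaks in replicate 1, and 25845 (WT) and 24203 (4A) in replicate 2. Within each replicate number the WT list was shortened to the length of the 4A list by −log10 q, the strength of a peak, which removed 496 and 1642 WT peaks. The lists were then merged into 29881 regions wherever peaks overlapped by 1 bp or more. A percentile rank gives the place of a region in a list (100 is the strongest), and the rank shift is the percentile in 4A less that in WT of the same replicate number. No region was tested between the lines, since the smallest p that an exact permutation test over 2 pairs of libraries can give is 0.5. Read depth is unknown, so a region without a call may still be bound below the limit of that library.

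Some of the regions described below cover promoters. The 250 bases before the start sites of 5 genes are shown from RefSeq (GRCh38.p14), because regions there ranked higher in 4A (CHAC1 and RIOK1), ranked lower in 4A (MNS1 and PYGB) or were among the strongest in all 4 libraries (MTMR4). They are written on the strand of the gene, with capitals at TGTGGT or TGCGGT on either strand. CHAC1 lies at chr15:40953221-40953470, plus strand. RIOK1 is at chr6:7389558-7389807, plus strand. MNS1 is at chr15:56465138-56465387, minus strand, PYGB at chr20:25247835-25248084, plus strand and MTMR4 at chr17:58517881-58518130, minus strand.
CHAC1: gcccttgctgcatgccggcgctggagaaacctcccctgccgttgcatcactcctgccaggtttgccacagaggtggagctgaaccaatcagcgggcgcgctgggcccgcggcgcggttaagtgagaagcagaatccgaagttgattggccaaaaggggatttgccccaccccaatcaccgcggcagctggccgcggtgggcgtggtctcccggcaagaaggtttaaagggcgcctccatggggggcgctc
RIOK1: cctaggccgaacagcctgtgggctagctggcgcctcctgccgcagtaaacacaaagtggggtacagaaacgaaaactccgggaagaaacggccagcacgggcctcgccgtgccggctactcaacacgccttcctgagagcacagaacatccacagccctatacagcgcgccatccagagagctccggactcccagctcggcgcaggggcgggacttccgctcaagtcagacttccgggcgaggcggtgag
MNS1: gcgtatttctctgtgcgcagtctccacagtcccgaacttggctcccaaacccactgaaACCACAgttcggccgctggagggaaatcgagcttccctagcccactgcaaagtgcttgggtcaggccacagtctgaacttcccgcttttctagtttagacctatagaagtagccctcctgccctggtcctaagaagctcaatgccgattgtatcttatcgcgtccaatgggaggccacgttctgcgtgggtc
PYGB: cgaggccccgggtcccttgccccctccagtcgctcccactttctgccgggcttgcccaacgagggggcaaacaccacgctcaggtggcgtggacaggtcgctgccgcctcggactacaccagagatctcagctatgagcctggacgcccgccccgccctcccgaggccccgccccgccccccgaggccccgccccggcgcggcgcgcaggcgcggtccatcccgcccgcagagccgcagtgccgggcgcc
MTMR4: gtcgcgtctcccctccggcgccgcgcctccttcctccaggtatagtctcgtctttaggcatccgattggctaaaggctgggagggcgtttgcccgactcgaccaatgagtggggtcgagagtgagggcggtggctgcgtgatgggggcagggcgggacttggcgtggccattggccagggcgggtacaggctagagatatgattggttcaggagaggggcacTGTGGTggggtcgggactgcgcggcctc
In MNS1 (1 match) and MTMR4 (1 match) the letters were present, and in CHAC1, RIOK1 and PYGB they were not. The summits of the RIOK1 and PYGB regions (7389959 and 25248228) lay outside the printed bases, so the absence does not describe those whole regions. Windows at SCOC, ARMH3 and ZNF784, named below for a lower rank in 4A, held 0 matches. The summits at ARMH3 and ZNF784 also lay outside their windows. Over all 34961 promoter windows of 300 bases, 19.6% held the letters, against 28.4% of the 2522 windows touched by regions called in all 4 libraries (95% Wilson interval 26.7 to 30.2). Windows under regions that ranked higher in 4A (13 of 55, 23.6%, 14.4 to 36.3) and lower in 4A (20 of 78, 25.6%, 17.3 to 36.3) had intervals that overlapped. A match of 6 letters is a description of the window and not a measured binding site.

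All 4 libraries called 4140 regions, and the strongest of these by mean percentile lay near NRROS, LSM10, MTMR4, IMPDH2 and RSPH1. The region nearest NRROS, a protein that holds latent TGF-β in myeloid cells, had −log10 q of 205 and 347 in WT replicates 1 and 2 and of 165 and 362 in 4A. At LSM10, a component of the U7 snRNP that processes histone RNA, the values were 163 and 440 in WT, against 156 and 502 in 4A. The MTMR4 region, at the promoter printed above, had 209 and 239 in WT and 132 and 296 in 4A, and MTMR4 encodes a lipid phosphatase of endosomes. The rank shifts of these 3 regions, and of those near IMPDH2 and RSPH1, were between −0.0799 and 0.143 percentile points in both replicate numbers, which their choice as the strongest in all 4 libraries fixes near 0.

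The lists agreed more in replicate 2 than in replicate 1. Of the regions in the replicate 1 lists of 6256 peaks, 67.8% of those in WT and 67.6% of those in 4A were shared. In replicate 2, with 24203 peaks each, the shares were 76.2% and 76.8%. Among the strongest 500 peaks of each list the shares were 61.6% of either list in replicate 1, and 75.2% (WT) and 75.5% (4A) in replicate 2. Across the 4140 regions, the percentiles of WT and 4A correlated with Pearson r of 0.631 in replicate 1 and 0.821 in replicate 2 (Spearman rho 0.674 and 0.889). These correlations are across regions of 2 libraries each, and regions are not replicates.

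Individual regions moved in rank, but the direction did not recur from one replicate number to the other. The middle 50% of rank shifts lay between −12.9 and 12.8 points in replicate 1 and between −2.66 and 4.12 in replicate 2, with medians of −0.48 and 0.295. The shared regions sat high in the long replicate 2 lists, with median percentiles of 87.9 in WT and 88.4 in 4A, against 63.4 and 63.04 in replicate 1. Pearson r between the shifts of replicate 1 and those of replicate 2 was −0.0493 over the 4140 regions (Spearman rho −0.0644). Without chromosomes 10 and 14 it was −0.0509 over 3867 regions (rho −0.0614). The 2 differences share no RUNX1 library, but the sources used here do not say whether they share background reads.

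In both replicate numbers 152 regions ranked at least 10 points higher in 4A (background 3.67% of regions called in all 4 libraries) and 122 ranked at least 10 points lower (2.95%). Those 274 regions that moved the same way were fewer than the 332 that moved by at least 10 points in opposite ways, of which 150 were higher in replicate 1 and lower in replicate 2 and 182 the reverse. Without chromosomes 10 and 14 the counts were 138 higher (3.57%) and 114 lower (2.95%), beside 307 in opposite ways. Which direction held more regions depended on the cut, with 124 higher and 155 lower at the deposited list lengths and 84 and 165 where a −log10 q of at least 5 was required. By mean percentile, 0 of the 152 and 0 of the 122 were among the strongest 1035 of the shared regions, where the median size of a shift was 5.09 points in replicate 1 and 0.983 in replicate 2. Among the weakest 1035 were 84 of the higher and 72 of the lower regions. The percentile scale ends at 100, which leaves the strongest regions little room to shift, so nothing is read from the counts of 0.

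**Figure D1:**
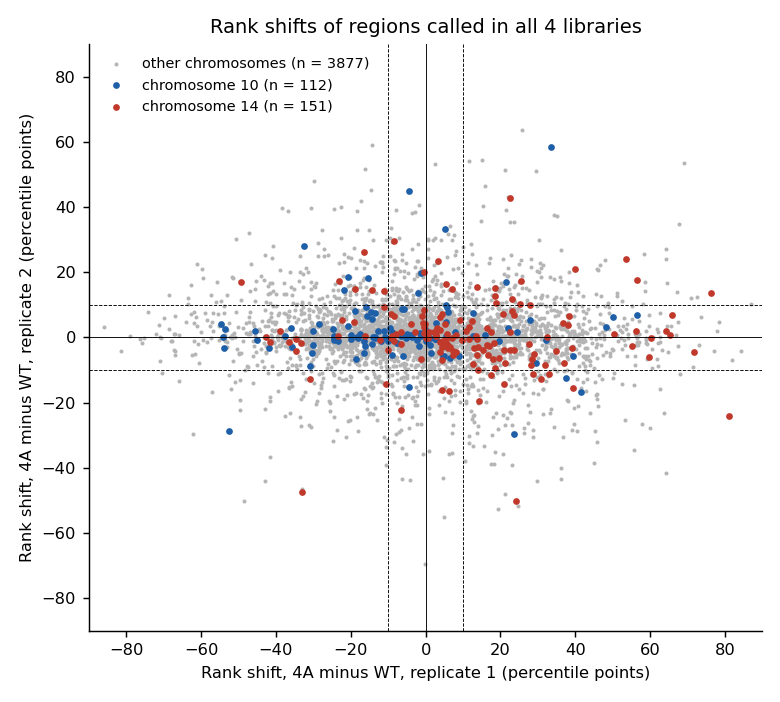
Each point is 1 of 4140 regions called in all 4 libraries, placed by its rank shift (4A minus WT, percentile points) in replicate 1 (x axis) and replicate 2 (y axis). Dashed lines mark 10 points. Points spread widely along x and narrowly along y with no slope (Pearson r −0.0493), and chromosome 14 (red) lies mostly to the right and chromosome 10 (blue) mostly to the left along x only.

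Among the 152 regions higher by rank in 4A, the 10 with the largest shift in both numbers included regions at CHAC1, RARA and RIOK1. With all 4 lists at one length, 0 of these 10 and 0 of the 10 named below for a lower rank kept this standing. Each lost its weaker replicate 2 call to the shortening, so it had no shift in that number. Where a peak needed a −log10 q of 5 or more, 4 and 1 kept it, and the others lost a call below 5. These counts thus follow from the cuts, and nothing about the size of the shifts is read from them. A region on chromosome 21 (23968639 to 23969194), 1617 kb from the nearest protein-coding gene MRPL39, came first. Its percentiles were 6.18 and 4.61 in WT replicates 1 and 2 and 75.2 and 58.01 in 4A. Both 4A values thus lay above both WT values, and neither 4D list had a call there. At the CHAC1 promoter (chromosome 15, 40953072 to 40953556), whose gene encodes an enzyme that degrades glutathione, the percentiles were 41.04 and 40.6 in WT, against 76.02 and 77.7 in 4A. The replicates of each line lay close together, and the 4D replicate 2 list called the region at a percentile of 55.7. Inside RARA, the retinoic acid receptor alpha, the region from 40338194 to 40338584 on chromosome 17 had 4.58 and 41.2 in WT, against 72.3 and 76.02 in 4A.

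The RIOK1 promoter (chromosome 6, 7389733 to 7390472), of a kinase that acts in maturation of the small ribosomal subunit, had percentiles of 19.9 and 26.8 in WT, against 54.3 and 64.5 in 4A. Inside DOCK1, an exchange factor that activates RAC (chromosome 10), they were 39.8 and 3.1 in WT and 73.3 and 61.5 in 4A. Regions inside TFCP2L1, a transcription factor, and inside TIMP3, an inhibitor of metalloproteinases, also shifted by more than 29 points in both numbers. Within TFCP2L1 the groups overlapped, since 4A replicate 1 (43.1) lay below WT replicate 2 (59.7). The others were 16.7 kb from SPTY2D1, a histone chaperone, 20.2 kb from GFPT2, an enzyme of the hexosamine pathway, and inside UQCRB, a subunit of respiratory complex III. In 9 of these 10 regions, and in 88 of the 152, both 4A percentiles lay above both WT percentiles, as they did in 243 of all 4140 shared regions (5.87%, and 5.72% without chromosomes 10 and 14). Selection by the shift raises this count among the 152, so nothing is read from it.

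Among the 122 regions lower by rank in 4A, several of the leading 10 lay at start sites. First was a region 83.9 kb from STT3B, a catalytic subunit of the oligosaccharyltransferase (chromosome 3, 31448770 to 31449246), with percentiles of 55.2 and 86.9 in WT, against 6.81 and 36.5 in 4A. In the 4D lists it stood at 54.2 and 95.9, close to the WT values. TCAF1, a regulator of a cold-sensing ion channel, had a region 0.064 kb outside the gene (chromosome 7, 143901911 to 143902328), at 75.9 and 65.5 in WT and 33.04 and 21.5 in 4A. Here the 4D values were 17.1 and 41.7, below both WT values. At the MNS1 promoter (chromosome 15, 56465052 to 56465492), of a structural protein of cilia and sperm tails, the values were 50.1 and 72.7 in WT and 8.4 and 35.9 in 4A, and in 4D 73.1 and 61.9. The PYGB promoter, of the brain form of glycogen phosphorylase (chromosome 20, 25248042 to 25248574), had 39.8 and 59.9 in WT and 6.81 and 13.3 in 4A. Its 4D values were 27.6 and 48.4, between those of WT and 4A.

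Regions within 0.2 kb of a start site were also found at SCOC, ARMH3 and ZNF784. The rank shifts were −62.1 and −29.6 points at SCOC (chromosome 4) and −52.5 and −28.8 at ARMH3 (chromosome 10). The remaining regions lay 28.8 kb from GZMB, the cytotoxic protease granzyme B (chromosome 14), inside MACF1, which links microtubules and actin, and 166 kb from POU3F1, a transcription factor. At MACF1 the percentiles were close between replicates, at 83.9 and 79.3 in WT, against 50.4 and 52.0 in 4A. At POU3F1 the groups overlapped, with 73.9 and 38.01 in WT and 42.8 and 10.98 in 4A. In 9 of these 10 regions, and in 52 of the 122, both 4A percentiles lay below both WT percentiles, as they did in 177 of all 4140 (4.28%, and 4.24% without chromosomes 10 and 14), and here too the selection raises the count.

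**Figure D2:**
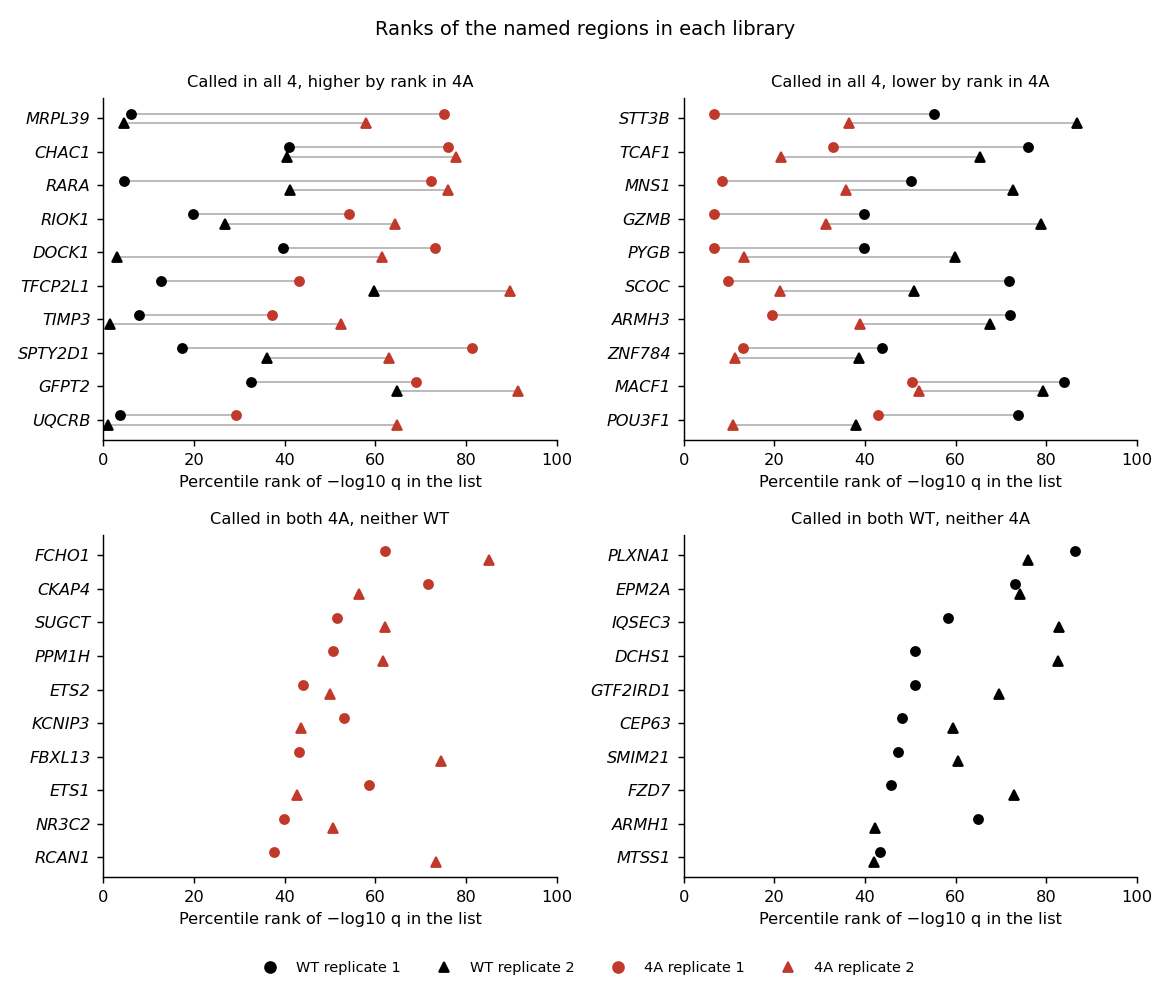
Percentile rank of −log10 q (x axis, 0 to 100) of the 10 named regions of each kind, by nearest protein-coding gene, with WT in black, 4A in red, circles for replicate 1 and triangles for replicate 2. Lines join WT and 4A of 1 replicate number; in the top panels the members were chosen for a shift in both numbers, so that the separation is a description, and in the bottom panels the line without points had no call.

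The place of peaks relative to genes differed between the lines in replicate 1, and not in the same direction in replicate 2. In replicate 1, 40.7% of the peaks of the shortened WT list had their summit at most 1 kb from an end of a protein-coding gene (95% Wilson interval 39.5 to 42.0) and 35.01% of those of the 4A list did (33.8 to 36.2). In replicate 2 the shares were 28.2% (27.7 to 28.8) and 29.7% (29.1 to 30.3), so the difference had the opposite sign. The means were 34.5 ± 8.84% in WT and 32.4 ± 3.74% in 4A (SD, n = 2), and these differ by less than the replicates do. That SD also spans the difference in list length, of 6256 against 24203 peaks. Paired by replicate number, the share in 4A less that in WT was −5.74 points in replicate 1 and 1.47 in replicate 2. Shared regions within 1 kb of a start site had a median shift of −4.15 points in replicate 1 and 0.432 in replicate 2 (n = 1499), and those farther away had 1.95 and 0.207 (n = 2441). Of the regions that ranked lower in 4A, 41.2% lay within 1 kb of a start site (32.7 to 50.2), against 26.03% of those that ranked higher (19.6 to 33.7) and 38.05% of all regions called in the 4 libraries. The part of the place of a region in its rank shift was not tested. RefSeq start sites used here are from 22 of the chromosomes, without chromosome 8.

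Chromosomes 10 and 14 stood apart, and they did so in a single library. Chromosome 14 held 2.86% of the peaks of WT replicate 1 (193 peaks, 95% Wilson interval 2.49 to 3.28) and 4.67% of those of 4A replicate 1 (292 peaks, 4.17 to 5.22). In replicate 2 it held 2.91% in WT and 2.93% in 4A, and in the 4D lists 2.81% and 2.79%. Chromosome 10 held 3.69% in WT replicate 1 (3.26 to 4.16) and 2.45% in 4A replicate 1 (2.09 to 2.86), against 4.06% and 4.05% in replicate 2 and 3.54% and 4.09% in 4D. The ratio of the 4A to the WT share in replicate 1 was 1.63 for chromosome 14 and 0.663 for chromosome 10, and lay between 0.757 (chromosome 13) and 1.12 (chromosome 3) for the other 21 chromosomes. In replicate 2 all ratios of those 21 lay between 0.91 (chromosome X) and 1.04 (chromosome 5).

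On chromosomes 10 and 14 the ranks in replicate 1 moved in the direction of the number of peaks. Chromosome 13 went the same way, with a ratio of 0.757 and a median shift of −5.15. On other chromosomes this was not always so, with a ratio of 0.779 and a median shift of 0.0559 on chromosome X. On chromosome 3 these were 1.12 and −1.71. On chromosome 14 the median shift of 151 shared regions was 8.15 points in replicate 1, with 108 of them above 0, and 0.14 in replicate 2, with 77 above 0. On chromosome 10 the medians of 112 regions were −7.09 and 0.414, with 36 and 65 above 0. The other chromosomes had medians between −5.15 and 3.1 in replicate 1 and between −0.597 and 0.814 in replicate 2. Along chromosome 14 the replicate 1 medians of the 5 bins of 20 Mb lay between 5.55 and 13.99, so each was above 0. In replicate 2 the bins lay between −2.39 and 1.84. Along chromosome 10 the replicate 1 medians were less even. They were 0.428 at 0 to 20 Mb (14 regions), −2.11 at 100 to 120 Mb (30 regions) and −17.4 at 120 to 140 Mb (11 regions).

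**Figure D3:**
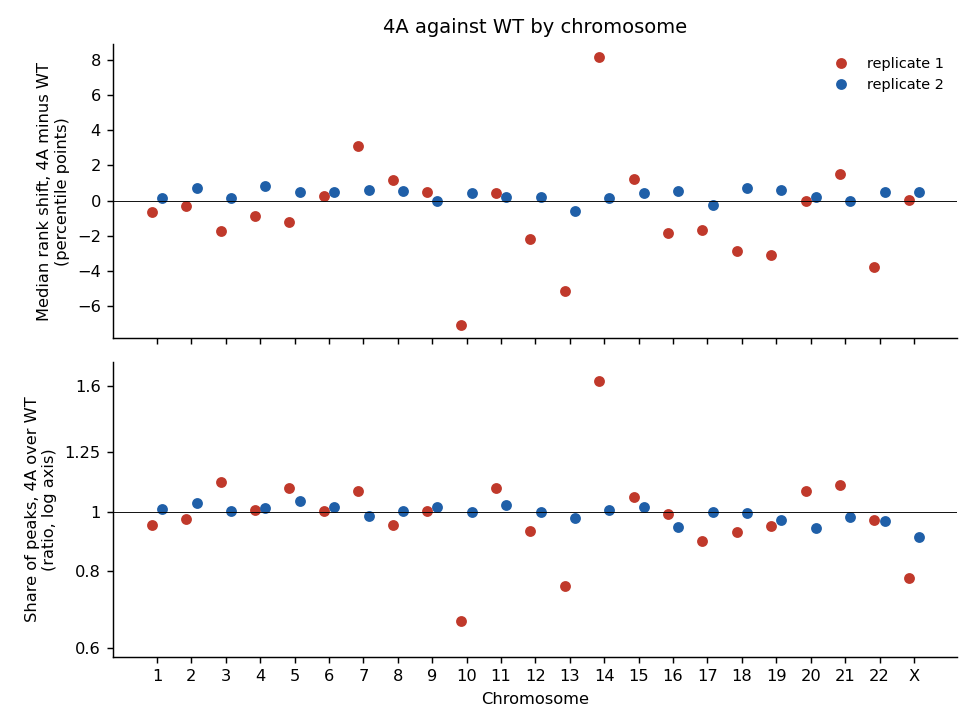
For each chromosome (x axis), the upper panel gives the median rank shift of regions called in all 4 libraries (4A minus WT, percentile points) and the lower panel the share of a deposited list's peaks on it in 4A over that in WT (log axis), red for replicate 1 and blue for replicate 2. Chromosome 14 (8.15 points, ratio 1.63) and chromosome 10 (−7.09 points, ratio 0.663) stand apart in replicate 1, and in replicate 2 both lie with the rest.

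The calls on chromosome 14 leaned the same way. Of its 151 shared regions 13 (8.61%) ranked higher in 4A in both numbers, beside the background of 3.67%, and 3 ranked lower. A share near this was also found on chromosome X (4 of 47, 8.51%) and chromosome 4 (9 of 109, 8.26%). Their median shifts in replicate 1 were 0.0559 and −0.887, so such a share is not particular to chromosome 14. On chromosome 10 there were 2 and 1 of 112. After the median shift of its chromosome in each number was subtracted, 11 regions of chromosome 14 ranked higher and 4 lower. Among the 13 were regions beside TINF2, a subunit of the shelterin complex of telomeres (shifts of 22.6 and 42.8 points), PNP, an enzyme of purine salvage (53.5 and 24.1), and inside SOS2, an exchange factor of RAS (40.0 and 20.9). A further pair lay inside or next to MARK3, a kinase of microtubule-associated proteins. The replicate 1 shifts of these regions include the shift of the whole chromosome in 4A replicate 1, and its part in them was not tested beyond the subtraction of the median.

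Regions called in both 4A and in neither WT library numbered 81 (0.271% of the 29881 regions), and in the opposite direction 69 (0.231%). Without chromosomes 10 and 14 the counts were 74 (0.266%) and 67 (0.241%). Chromosome 14 held 7 of the 81 and 0 of the 69, beside 9 and 7 on chromosome 3 and 8 and 3 on chromosome 12. Chromosomes 17 and 21 also held 0 of the 69. A further 115 regions were called in 4A replicate 1 and WT replicate 2 alone, and 52 in WT replicate 1 and 4A replicate 2 alone. In these the direction differed between the numbers. In replicate 1 alone 1915 regions were called in 4A and not in WT and 1905 in WT and not in 4A, and in replicate 2 the counts were 5530 and 5714.

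Regions of either kind ranked low. The median of the lower of the 2 percentiles was 15.1 for the 81 regions called with 4A and 14.9 for the 69 called with WT, against 50.1 over 4 libraries for regions called in all. They were narrower too, with median widths of 313 and 307 bp against 794 bp. These widths are of merged regions, and a region called in all 4 libraries unites peaks of more lists. Single peaks of the lists had median widths between 285 and 365 bp. The part of the merging in the difference was not tested. Within 1 kb of a start site lay 18.4% of the regions with 4A (95% Wilson interval 11.3 to 28.6) and 20% of those with WT (12.1 to 31.3). Among regions called in all 4 libraries the share was higher, at 38.05%, and in each of these sets, that one included, most regions lay farther away.

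With 4A and not WT, the highest rank was that of a region inside FCHO1, a protein that starts clathrin-coated pits (chromosome 19, 17775134 to 17775458), at percentiles of 62.3 and 85.1. A region 42.1 kb from CKAP4, a membrane protein of the endoplasmic reticulum, followed at 71.7 and 56.4. Regions inside SUGCT, a mitochondrial CoA transferase (51.5 and 62.1), and inside PPM1H, a serine and threonine phosphatase (50.8 and 61.6), came next. A pair of ETS family transcription factor genes was nearest to others, with a region 37.2 kb from ETS2 (44.1 and 49.9) and one 156 kb from ETS1 (58.7 and 42.8). The rest of the 10 lay inside KCNIP3, FBXL13, NR3C2, the mineralocorticoid receptor, and RCAN1, an inhibitor of calcineurin. Those in KCNIP3 and PPM1H also had WT peaks in the unshortened lists, and so lost this standing there.

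With WT and not 4A, a region 37.8 kb from PLXNA1, a receptor for semaphorins (chromosome 3, 127074929 to 127075275), came first at percentiles of 86.4 and 76.0. Inside EPM2A, which encodes the glycogen phosphatase laforin (chromosome 6, 145470940 to 145471117), the values were 73.1 and 74.3. The region 2.22 kb from IQSEC3, an exchange factor of ARF GTPases, stood at 58.3 and 82.8. DCHS1, a large cadherin, was 12.1 kb from another (51.0 and 82.6). Regions inside GTF2IRD1 and CEP63, and nearest to SMIM21, FZD7, a receptor for Wnt proteins, ARMH1 and MTSS1 complete the 10. Among the named 20, those at FCHO1, FBXL13, PLXNA1, EPM2A, IQSEC3 and DCHS1 kept this standing under each of 7 other ways of cutting or merging the lists.

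The 4D lists, which played no part in choosing these regions, were read at the same places. Of the 69 regions called with WT and not 4A, the 4D replicate 2 list called 50 (72.5%, 95% Wilson interval 61.0 to 81.6) and replicate 1 called 15 (21.7%, 13.6 to 32.8). Of the 81 called with 4A and not WT, it called 29 (35.8%, 26.2 to 46.7) in replicate 2 and 8 (9.88%, 5.09 to 18.3) in replicate 1. The intervals of these shares did not overlap in replicate 2 and overlapped in replicate 1. With the lists at their deposited lengths the replicate 2 shares were 73.6% and 38.2%, and without chromosomes 10 and 14 they were 73.1% and 37.8%. With all 4 lists at one length, where most of these regions leave and stronger ones enter, they were 97.5% and 96.2%.

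Intervals cover counting error over regions only, and the regions come from the same 4 libraries. The 4A lists reach down to a −log10 q of 1.37 and 1.30, against 3.32 and 2.54 in the shortened WT lists, and the regions with 4A had a lower median percentile in replicate 2 (26.5 against 35.1). The part of this in the 4D shares was not tested. Among shared regions, the 4D replicate 1 list called 69.7% of those lower by rank in 4A (61.02 to 77.1) and 50% of those higher (42.1 to 57.9). In replicate 2 the shares were 99.2% and 96.1%. Over all 4140 shared regions they were 78.7% in replicate 1 and 99.2% in replicate 2, so that both sets lay below all regions in replicate 1 and the lower set equalled them in replicate 2.

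**Figure D4:**
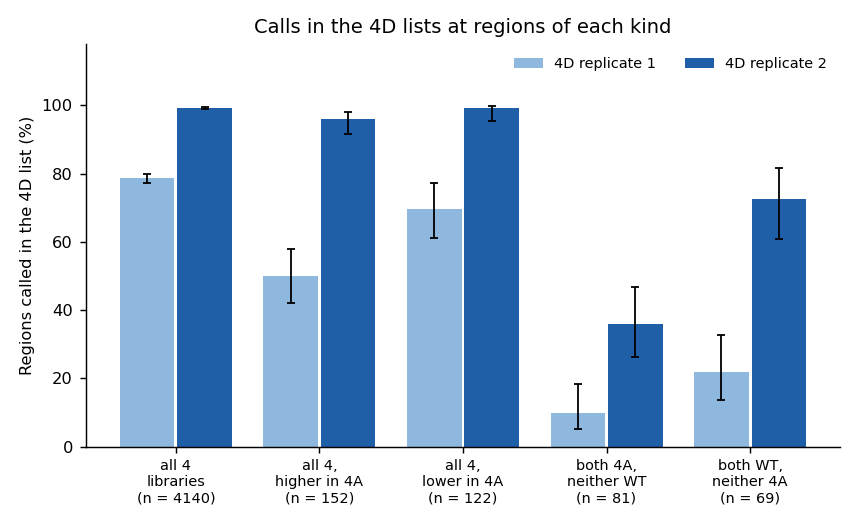
Share of regions of each kind (x axis, with their number) that were called in the deposited 4D replicate 1 (light) and replicate 2 (dark) lists, in percent, with 95% Wilson intervals as error bars. In both replicates the share is higher for regions called with WT and not 4A (21.7 and 72.5%) than for regions called with 4A and not WT (9.88 and 35.8%).

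Regions were also read at 7 gene lists, of lineages and processes in which RUNX1 acts and of tissues outside the blood. In each list 0 or 1 regions ranked higher in 4A in both replicate numbers, and 0 or 1 ranked lower. Over all 4140 regions 3.67% ranked higher and 2.95% lower, and the lists held only 6 to 29 regions. Nothing is therefore read from these counts, including those of 0. The median shifts of the lists ranged from −5.66 to 3.48 points in replicate 1 and from −0.0992 to 2.96 in replicate 2. Each gene of the 7 lists was matched to regions called in all 4 libraries within 10 kb of it, and many genes had no such region. At 22 of 40 megakaryocyte and platelet genes there were 29 such regions, with median shifts of −1.04 points in replicate 1 and −0.0992 in replicate 2, beside −0.48 and 0.295 over all 4140 regions. Only 1 of the 29 (3.45%, background 3.67%) ranked higher in both numbers and 0 ranked lower. It lay inside SELP, which encodes P-selectin, an adhesion protein of platelet granules (chromosome 1, 169604733 to 169605077). Its percentiles were 36.2 and 15.5 in WT and 47.8 and 69.6 in 4A, so both 4A values lay above both WT values, and neither 4D list called it.

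Single genes of the lists are given as examples that were chosen after their values were seen. The best region of ITGB3, the beta subunit of the fibrinogen receptor, had percentiles of 92.8 and 99.5 in WT, against 80.9 and 99.1 in 4A, and that of GP1BB, of the von Willebrand factor receptor, had 89.4 and 97.5 in WT and 95.1 and 96.2 in 4A. ANKRD26, a gene of inherited thrombocytopenia, had 3.04 and 53.2 in replicate 1 (WT and 4A) and 69.5 and 75.9 in replicate 2. GP9 went opposite ways, with a shift of −33.7 points in replicate 1 and 17.2 in replicate 2.

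For the erythroid list, 11 of 42 genes had 13 regions, with medians of 3.48 and 0.411 and 0 regions past 10 points in both numbers in either direction. At EPB41, a protein of the red cell skeleton, the percentile was 13.9 in WT and 67.9 in 4A in replicate 1, but 88.9 and 88.8 in replicate 2. Blood transcription factors had 29 regions at 16 of 41 genes, with medians of −2.67 and 0.0145, and RUNX1 targets known from the literature 26 regions at 19 of 30 genes, with medians of 2.31 and −0.00723. In both lists, as in the erythroid list, 0 regions passed in either direction, beside 3.67% higher and 2.95% lower over all shared regions. RUNX1 itself had 97.7 and 99.6 in WT and 98.3 and 99.6 in 4A at its best region, and LYL1 had 18.3 and 98.03 in WT and 70.5 and 97.7 in 4A.

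Cell cycle genes had 17 regions at 13 of 38 genes, with medians of −4.35 and 0.0909. A region inside CDC25A, a phosphatase that activates cyclin-dependent kinases, ranked higher in 4A in both numbers (shifts of 12.8 and 10.9 points). Near MCM2, a subunit of the replicative helicase, a region inside the neighbouring gene TPRA1 ranked lower (−42.2 and −11.05), with percentiles of 42.98 and 88.3 in WT, against 0.823 and 77.2 in 4A. One region 0.043 kb from MCM4, another subunit of that helicase, was called in both WT and neither 4A library, at percentiles of 5.69 and 18.04. Genes of CDK9 complexes and transcription elongation had 11 regions at 9 of 25 genes, with medians of −5.66 and 2.96. Of these 1 ranked higher in both numbers, near CCNT1, the cyclin subunit of P-TEFb, and nearest to KANSL2 (shifts of 30.95 and 21.3). Single calls made up 5.88% higher and 5.88% lower of the 17 regions and 9.09% higher of the 11, beside the background of 3.67% and 2.95%. In lists this small 1 call moves the share by that much, so nothing is read from it. The MCM4 region is not one of the 17, and calls with WT alone were 0.231% of all 29881 regions. Genes of tissues outside the blood had 6 regions at 4 of 36 genes, with medians of −3.02 and 0.721 and 0 past 10 points in both numbers.

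**Figure D5:**
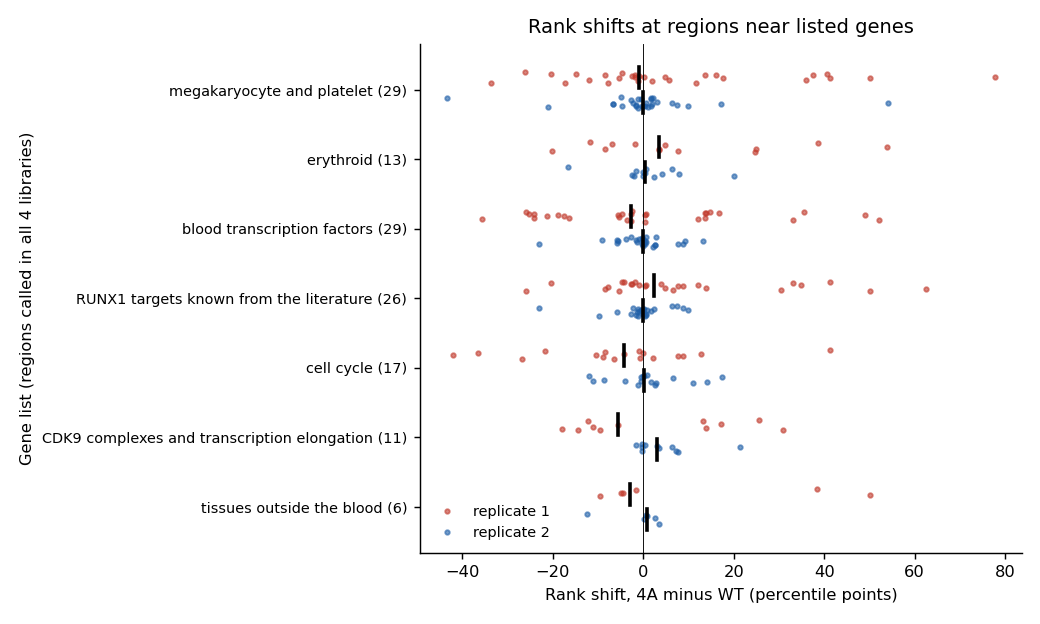
Rank shift (4A minus WT, percentile points, x axis) of each region called in all 4 libraries within 10 kb of a gene of each list (number of regions in brackets), red for replicate 1 and blue for replicate 2, with black bars at the medians. The medians lie between −5.66 and 3.48 points in replicate 1 and between −0.0992 and 2.96 in replicate 2, inside the spread of the single regions.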

How the data were processed

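Binding was profiled by CUT&RUN, in which an antibody directs a nuclease to a chromatin protein and the released DNA is sequenced, with 12 PCR cycles per the labels. Per the submitters' processing notes the tools were MACS2 2.2.7.1, Bowtie2 2.4.2, cutadapt 3.4, deepTools 3.5.1 and Picard 2.25.6 on hg38, with their settings not stated. Each library has 1 deposited peak list, which gives every peak a whole-number score, a fold enrichment (a ratio) and p-values and q-values as −log10, all the authors' values and used only to rank, filter or describe peaks within a list. Read depth is unknown.

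Lists were handled in Python 3.11.15 with pandas 2.3.3 and scipy 1.17.1. Tied peaks were ordered by −log10 p, then by fold enrichment. A region took its strongest peak in each list. The 4D lists kept their deposited length. Genes and promoters came from RefSeq GRCh38.p14, and coordinates are 1-based on hg38. The counting was tested on simulated lists. Named were the 10 regions of each call kind with the highest lower percentile, the 10 of each rank direction with the largest smaller shift, the 5 strongest, and list genes with such a region within 10 kb. Members and lists were chosen with earlier results of these data known. The labels call the replicates biological and do not say whether a number marks a shared batch; pairing by number follows the comparison's rule. One gene of the lists is not reported here by name.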

Additional observations from a re-analysis of the deposited data

Results flagged for a closer look

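Peaks outside chromosomes 1 to 22 and X were not used in any comparison and numbered 19 (WT replicate 1), 83 (WT replicate 2), 16 (4A replicate 1) and 51 (4A replicate 2). On the mitochondrial genome the highest −log10 q was 874 in WT replicate 1 and 1366 in 4A replicate 1, above every peak on the chromosomes used (230 and 167), and 51.9 in WT replicate 2 and 15.2 in 4A replicate 2. No peaks of the empty vector line were used, so the level in a control is not given.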

How the results depend on the processing

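The correlation of shifts between replicate numbers lay between −0.0695 and −0.0367 under the 8 other settings, and 2907 (one length) to 4264 (deposited lengths) regions were called in all 4 libraries under the settings that kept both replicate numbers. The larger call count changed sides with list length, since at deposited lengths 68 regions were called with 4A only and 91 with WT only. The regions called with 4A only numbered 131 with all lists at one length, 42 with a −log10 q of at least 5 and 136 with summit windows, and those with WT only numbered 162, 94 and 116. Regions higher by rank in 4A numbered 84 (lower 165) with a −log10 q of at least 5, 36 and 24 at 20 points, and 269 and 242 when ranked among the shared regions alone, where 579 moved in opposite ways. With no replicate block, so that both 4A percentiles had to pass both WT percentiles by 10 points, they numbered 54 and 26. Leaving out 1 replicate number gave 1915 to 5530 regions with 4A only, 1905 to 5714 with WT only, 4206 to 18272 in both lines, 1214 to 4632 higher and 1232 to 3947 lower. The 4D replicate 2 list called 96.2, 54.8 and 61.03% of regions with 4A only (one length, −log10 q of at least 5, summit windows) and 97.5, 88.3 and 82.8% of those with WT only. Medians of gene lists moved beyond their spread for megakaryocyte genes within 2 kb (0.567 against −0.569) and for RUNX1 targets ranked by fold enrichment (−0.534 against 1.15). With all lists at one length 2 of 10 named 4A regions and 4 of 10 named WT regions kept their standing. The cause of these changes was not tested. Chromosome medians without replicate 1 were 0.414 (chromosome 10) and 0.14 (chromosome 14), and without replicate 2 −7.09 and 8.15. The ranking among shared regions, the subtraction of chromosome medians and the settings for 4D calls were chosen after seeing the data.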
